A study of Homo sapiens with 6 samples.

Results

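Fibroblast growth factor (FGF) signalling and the feedback genes of the ERK kinase pathway were examined as 39 genes named by symbol in the pancreatic cancer line L3.6pl, which is of human origin: 10 FGF ligands, 2 secreted FGF carriers, 6 receptors and co-receptors, 2 RAS GTPases, 7 Sprouty and SPRED genes, 11 dual-specificity phosphatases (DUSP) and PHLDA1. All 39 symbols had a row among the 23245 gene rows used, and 30 of them reached the mean level of 0.5 FPKM needed for testing. The study measured poly(A)-captured RNA in 3 libraries of ARID1A-deficient cells, titled as knockouts, and 3 libraries of parental cells with wild-type ARID1A. Both groups grew in serum-containing medium, and the labels name no drug. ARID1A is part of SWI/SNF, a complex that repositions nucleosomes, and the comparison asks which transcripts differ when it is deficient. The sources used here state neither how the gene was disrupted nor whether the deficient cells are 1 clone or several, and there is no rescue sample. What ARID1A loss does and what else sets these cells apart cannot be told apart.

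FGFs are secreted ligands that bind receptor tyrosine kinases together with heparan sulfate, and the activated receptor signals through RAS, RAF, MEK and ERK. ERK activity in turn induces genes that damp the pathway: Sprouty and SPRED proteins act near the receptor and RAS, and several DUSP phosphatases remove the phosphates that activate ERK and its relatives. Carrier proteins such as FGFBP1 release FGFs from stores on heparan sulfate, and ERK output has been studied at length in pancreatic ductal cancers.

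Levels are in FPKM, which divides a gene's fragments by its transcript length and by a library factor. Library sums ran from 620223 to 725307 FPKM in the ARID1A-deficient libraries and from 576084 to 792187 FPKM in the parental libraries. The sources used here give no fragment totals. Relative depth was estimated from the most common FPKM ratio to parental library 1 among rows below 0.2 FPKM in every library. The estimates ran from 0.732 to 1.27 times that of parental library 1. ARID1A itself measured 3.55, 3.28 and 3.61 FPKM in ARID1A-deficient libraries, against 11.8, 6.76 and 9.42 FPKM in parental libraries, with no overlap between groups (log2 fold change -1.18, SE 0.18, adjusted p = 0.00610 in limma). Epithelial markers were measurable for 8 of 8 genes and summed to 4566 to 5779 FPKM in ARID1A-deficient libraries, against 6302 to 9860 FPKM in parental libraries. None of the 8 was called lower in the main fit, and CLDN4, a tight junction gene, was called higher at 19.7 ± 1.99 FPKM in ARID1A-deficient cells and 5.42 ± 0.111 FPKM in parental cells (SD, n = 3 each). MUC1 also had a higher mean but was not called. The means of EPCAM, KRT7, KRT8, KRT18, KRT19 and CDH1 were lower, with log2 fold changes from -0.77 for KRT19 to -0.36 for EPCAM. Quantile normalization called 1 higher and 5 lower, and scaling every library to the same FPKM sum called 2 higher and 4 lower. Without parental library 2 the counts were 2 higher and 3 lower. A replicate block called 2 higher and 5 lower, and limma without trend 1 higher and 1 lower. Of all genes tested, the main fit called 15.9%. The share was 19.5% with quantile normalization, 11.5% with equal sums and 31.8% without parental library 2. It was 31.6% with the replicate block and 15.3% without trend. Of 5 fibroblast markers none reached the mean needed for testing, DCN and LUM were listed at 0 in all 6 libraries, and the 5 summed to 0.346 to 0.594 FPKM in ARID1A-deficient libraries, against 0.0101 to 0.0949 FPKM in parental libraries. Of 5 leukocyte markers, LCP1 alone was measurable, at 38.0 to 44.1 FPKM in ARID1A-deficient libraries, against 19.7 to 24.6 FPKM in parental libraries, while PTPRC was at most 0.0442 FPKM. Of 5 endothelial markers, 2 were measurable, which brought their sum to 8.66 to 9.23 FPKM in ARID1A-deficient libraries, against 8.43 to 10.0 FPKM in parental libraries, and VWF and KDR were at most 0.0307 FPKM. Of 5 acinar markers 1 was measurable, with sums of 1.67 to 3.19 FPKM in ARID1A-deficient libraries, against 0.959 to 1.09 FPKM in parental libraries.

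The FGF carrier FGFBP1 and the feedback genes SPRY2 and SPRY4 were higher in ARID1A-deficient cells, and the receptors FGFR2, FGFR3 and FGFRL1 and the ERK-responsive gene PHLDA1 were lower. Of the 30 tested members, 13 passed a Benjamini-Hochberg adjusted p of 0.05 in limma, 7 higher and 6 lower. Over all 12826 genes tested, 15.9% passed, with 7.82% higher and 8.11% lower. The members' share was 43.3%, and the members were chosen with earlier results of these data known. FGF18 and DUSP10 reached the mean needed for testing only through the group in which they were higher. Among genes with a mean of 0.5 FPKM in each group, a restriction chosen after seeing the data, 12 of 28 members were called, 6 in each direction, beside 15% of genes. The median log2 fold change of all 30 tested members was -0.08, beside -0.01 over all genes tested, and their median absolute log2 fold change was 0.36, beside 0.20. The groups of 3 libraries did not overlap for 17 of the 30 tested members, and for 35.3% of all genes tested. A log2 fold change of at least 1 in size, on the log2(FPKM + 1) scale, together with a passing adjusted p was met by FGFBP1, SPRY2 and FGFR3, 3 of 30, against 3.48% of all genes tested. In bulk RNA, fewer cells that express a gene and less RNA per cell cannot be told apart.

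**Figure D1:**
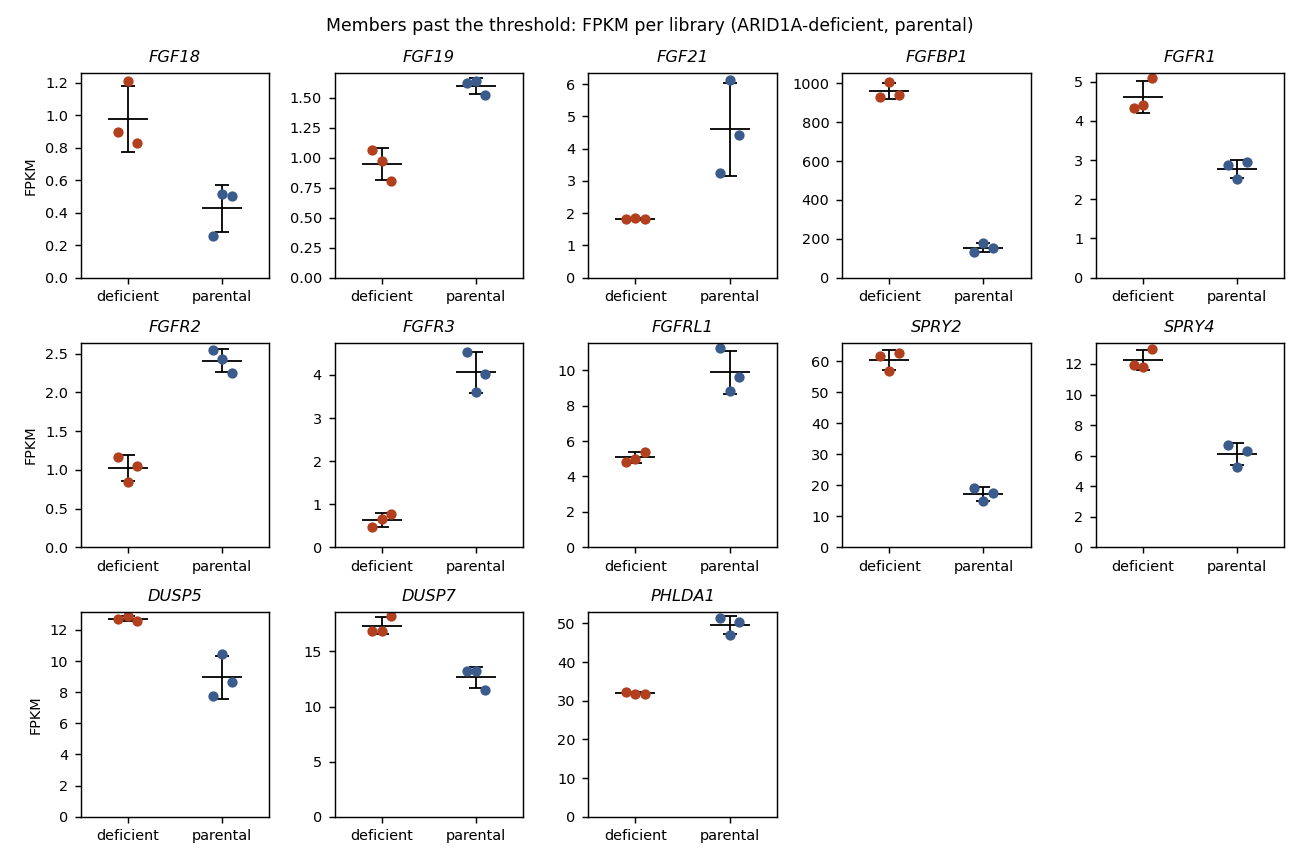
FPKM per library (points) with the group mean and SD (lines, n = 3) for the 13 members past the threshold, ARID1A-deficient left of parental in each panel, on linear axes from 0. FGFBP1 lies at 932 to 1009 FPKM in ARID1A-deficient libraries and at 133 to 179 FPKM in parental libraries. In none of the 13 panels do the groups overlap, but the test that picked these genes used the same libraries. The groups did not overlap for 35.3% of all genes tested.

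The 7 members called under every alternative setting that tested them were FGFBP1, SPRY2 and SPRY4, which were higher, and FGFR2, FGFR3, FGFRL1 and PHLDA1, which were lower. The other 6, which are FGF18, FGF19, FGF21, FGFR1, DUSP5 and DUSP7, lost their call in at least 1 of the 13 alternatives. The share of all genes called moved with the members' counts. Higher members numbered 4 when ARID1A-deficient library 1 or 2 or parental library 3 was left out, and 3 when ARID1A-deficient library 3 was, while 7.52% to 9.94% of all genes were called. They numbered 4 with every library scaled to the same FPKM sum, where 11.5% of all genes were called. Lower members numbered 4 without any single ARID1A-deficient library or parental library 3. Without parental library 2 the counts were 9 higher and 8 lower, while the share of all genes called was 31.8%. Parental library 2 had the highest FPKM sum of the 6 libraries. All 13 members kept their direction in each alternative that tested them.

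**Figure D2:**
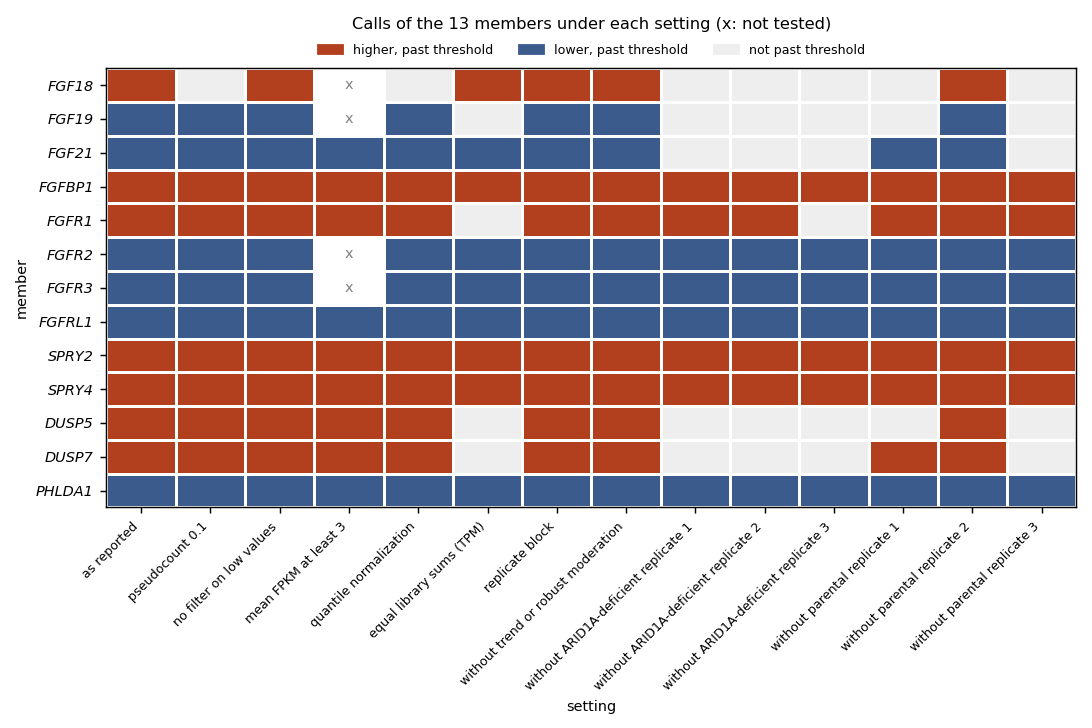
Calls of the 13 members (rows) as reported and under 13 alternative settings (columns): red, higher and past the threshold; blue, lower and past the threshold; grey, not past it; x, not tested. FGFBP1, SPRY2, SPRY4, FGFRL1 and PHLDA1 are coloured in every column, and FGFR2 and FGFR3 in every column except the filter at a mean of 3 FPKM, which leaves them out.

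The start regions of the members with the largest changes differ in base composition and are shown for FGFBP1 and SPRY2, the strongest increases, for SPRY4, the other Sprouty gene that rose, and for FGFR3, the strongest decrease. Each sequence is the RefSeq window of build GRCh38.p14 from 250 bases before to 50 bases after an annotated start, read 5′ to 3′ on the gene's own strand. Capitals mark matches on either strand to 5 motifs: the ETS motif CCGGAAGT, the AP-1 motif TGANTCA, the TEAD motif GGAATG, the SP1 motif GGGCGG and the TATA motif TATAAA.
FGFBP1, chr4:15938691-15938990, minus strand: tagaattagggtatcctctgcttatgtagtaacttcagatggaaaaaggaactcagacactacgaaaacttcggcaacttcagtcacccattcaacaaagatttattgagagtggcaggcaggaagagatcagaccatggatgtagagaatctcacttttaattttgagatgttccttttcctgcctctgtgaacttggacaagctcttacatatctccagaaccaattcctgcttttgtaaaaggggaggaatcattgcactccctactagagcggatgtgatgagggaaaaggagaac
SPRY2, chr13:80341077-80341376, minus strand, the most upstream of 3 annotated windows: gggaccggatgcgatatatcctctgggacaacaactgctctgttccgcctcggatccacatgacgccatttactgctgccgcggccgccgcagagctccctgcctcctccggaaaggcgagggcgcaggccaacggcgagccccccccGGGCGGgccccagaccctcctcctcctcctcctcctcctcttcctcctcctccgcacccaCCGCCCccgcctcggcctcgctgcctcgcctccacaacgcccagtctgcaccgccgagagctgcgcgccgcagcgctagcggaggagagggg
SPRY4, chr5:142324198-142324497, minus strand: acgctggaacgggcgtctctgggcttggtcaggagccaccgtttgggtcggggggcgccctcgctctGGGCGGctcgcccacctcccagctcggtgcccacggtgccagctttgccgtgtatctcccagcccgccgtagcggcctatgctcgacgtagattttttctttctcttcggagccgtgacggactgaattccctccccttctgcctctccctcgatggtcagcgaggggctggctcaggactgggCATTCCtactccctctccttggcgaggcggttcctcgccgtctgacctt
FGFR3, chr4:1793043-1793342, plus strand: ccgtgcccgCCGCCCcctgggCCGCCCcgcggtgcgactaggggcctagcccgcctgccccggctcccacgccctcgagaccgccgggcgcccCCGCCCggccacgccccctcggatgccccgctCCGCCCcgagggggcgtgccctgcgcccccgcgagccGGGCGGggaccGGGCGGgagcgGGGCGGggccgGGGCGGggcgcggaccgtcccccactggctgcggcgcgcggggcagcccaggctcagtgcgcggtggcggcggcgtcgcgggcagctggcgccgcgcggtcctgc

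The FGFBP1 window was 42% G and C and held no match to the 5 motifs, and the FGFR3 window was 86.3% G and C and held 8 matches, all of them to the SP1 motif. The SPRY2 window, at 71.0% G and C, held 2 SP1 matches. The SPRY4 window, at 65.0%, held 1 SP1 match and 1 TEAD match that begins at base 2 after the start. The median of all 35116 windows was 58.7% G and C. Windows were at hand for 34 of the 39 members, 56 windows in all. The SP1 motif was in 58.9% of the members' windows and 45% of all windows, the ETS motif in 1.79% and 4.14%, the AP-1 motif in 8.93% and 7.71%, the TEAD motif in 8.93% and 14%, and the TATA motif in 7.14% and 11.5%. FGFBP1 and FGFR3 both lie on chromosome 4 and moved in opposite directions. These matches describe the letters only, and the files hold no measure of factor binding.

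**Figure D3:**
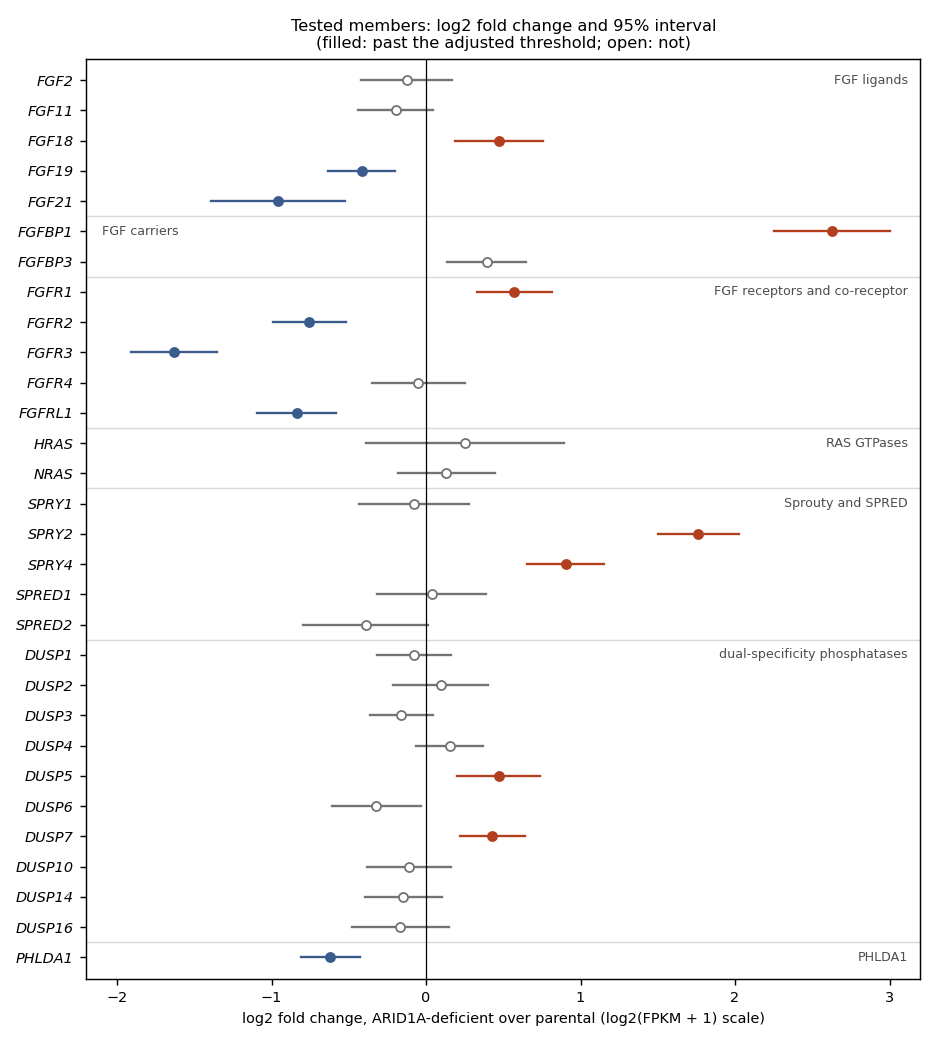
Log2 fold change of ARID1A-deficient over parental on the log2(FPKM + 1) scale with its 95% interval from limma, for the 30 tested members in order of role (filled: past the adjusted threshold; open: not). FGFBP1 stands farthest to the right at 2.63 and FGFR3 farthest to the left at -1.63, and within the receptors, FGFR1 is the only one whose interval lies above 0.

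Among the ligands, FGF18 was higher and FGF19 and FGF21 were lower in ARID1A-deficient cells, all at low levels. FGF21, an endocrine FGF best known as a metabolic stress hormone, measured 1.81, 1.84 and 1.80 FPKM in ARID1A-deficient libraries, against 3.26, 6.12 and 4.41 FPKM in parental libraries. The ARID1A-deficient values lay close together below every parental value, and the parental values spread widely. It fell 2.53-fold, a log2 fold change of -0.96 on the log2(FPKM + 1) scale (SE 0.18, adjusted p = 0.0147). The FGF21 call ended when any ARID1A-deficient library or parental library 3 was left out (highest adjusted p = 0.0698). FGF19, an endocrine FGF that acts on bile acid synthesis, measured 1.06, 0.9751 and 0.807 FPKM in ARID1A-deficient libraries, against 1.63, 1.64 and 1.52 FPKM in parental libraries. All ARID1A-deficient values were below all parental values, a 1.69-fold decrease (log2 fold change -0.42, SE 0.09, adjusted p = 0.0241). The FGF19 call ended without any single library but parental library 2, and with equal library sums (highest adjusted p = 0.105).

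FGF18, a paracrine ligand of skeletal and lung development, measured 0.895, 1.21 and 0.831 FPKM in ARID1A-deficient libraries, against 0.258, 0.517 and 0.504 FPKM in parental libraries. The groups did not overlap, and it rose 2.30-fold; it reached the mean needed for testing only through the ARID1A-deficient libraries (log2 fold change 0.47, SE 0.12, adjusted p = 0.0405). The FGF18 call was lost in 7 of 12 alternatives, among them each left-out library except parental library 2 (highest adjusted p = 0.131). With a pseudocount of 0.1 the log2 fold change of FGF18 was 1.06 (adjusted p = 0.0540). FGF2, basic FGF, a ligand without a classical signal peptide, measured 3.10, 2.83 and 2.39 FPKM in ARID1A-deficient libraries, against 3.54, 2.68 and 3.16 FPKM in parental libraries. Its groups overlapped, and the log2 fold change was -0.13 (95% interval -0.42 to 0.17, adjusted p = 0.561). FGF2 overlaps NUDT6 on the opposite strand, and with an unstranded kit their reads may be mixed. NUDT6 averaged 7.65 FPKM in ARID1A-deficient libraries and 10.9 FPKM in parental libraries. Opposite-strand genes that have no row here overlap exons of FGF11, FGFBP3, FGFR1, DUSP6 and PHLDA1, where reads may be mixed as well.

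FGF11 and FGF12 belong to the FGF homologous factors, which stay inside the cell and bind ion channels rather than signal through FGF receptors. FGF11 measured 2.06, 2.11 and 1.63 FPKM in ARID1A-deficient libraries, against 2.42, 2.33 and 2.32 FPKM in parental libraries. Its groups did not overlap, but it did not pass (log2 fold change -0.20, 95% interval -0.44 to 0.04, adjusted p = 0.252). FGF12 did not reach the mean needed for testing and measured 0.592, 0.656 and 0.489 FPKM in ARID1A-deficient libraries, against 0.239, 0.337 and 0.197 FPKM in parental libraries. With no filter on low values it was called higher (log2 fold change 0.33, SE 0.07, adjusted p = 0.0249). The remaining ligands were near the floor of the files. FGF9 measured 0.0380 to 0.0830 FPKM in ARID1A-deficient libraries, against 0.0387 to 0.0741 FPKM in parental libraries. FGF1, FGF5 and FGF7 reached at most 0.0275 FPKM in ARID1A-deficient libraries and were listed at 0 in all parental libraries. A listed 0 can be a failed estimate, since TUBB, a widely used tubulin, had a 0 in each of the 6 libraries.

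Of the carriers, FGFBP1 had the largest increase among the tested members and their highest level in ARID1A-deficient cells. FGFBP1 measured 932, 1009 and 939 FPKM in ARID1A-deficient libraries, against 133, 179 and 154 FPKM in parental libraries. The lowest ARID1A-deficient value was several times the highest parental value. It averaged 959.8 ± 42.5 FPKM in ARID1A-deficient cells and 155 ± 22.9 FPKM in parental cells (SD, n = 3 each), a 6.18-fold increase (log2 fold change 2.63, SE 0.16, adjusted p = 9.84e-05). By mean level FGFBP1 ranked 94 of 12826 tested genes in ARID1A-deficient cells and 738 in parental cells. Without any single library its log2 fold change stayed between 2.52 and 2.74. FGFBP3, a related heparin-binding carrier, measured 1.54, 1.45 and 1.43 FPKM in ARID1A-deficient libraries, against 0.998, 1.03 and 0.652 FPKM in parental libraries. The FGFBP3 groups did not overlap, and the gene missed the threshold (log2 fold change 0.39, 95% interval 0.13 to 0.65, adjusted p = 0.0541). It passed without parental library 2 (adjusted p = 0.0234). Within a library, FGFBP1 was 603 to 698 times FPKM of FGFBP3 in ARID1A-deficient libraries and 133 to 237 times in parental libraries. This ratio sets levels per transcript length side by side and shows unequal change of the pair, not which one moved.

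**Figure D4:**
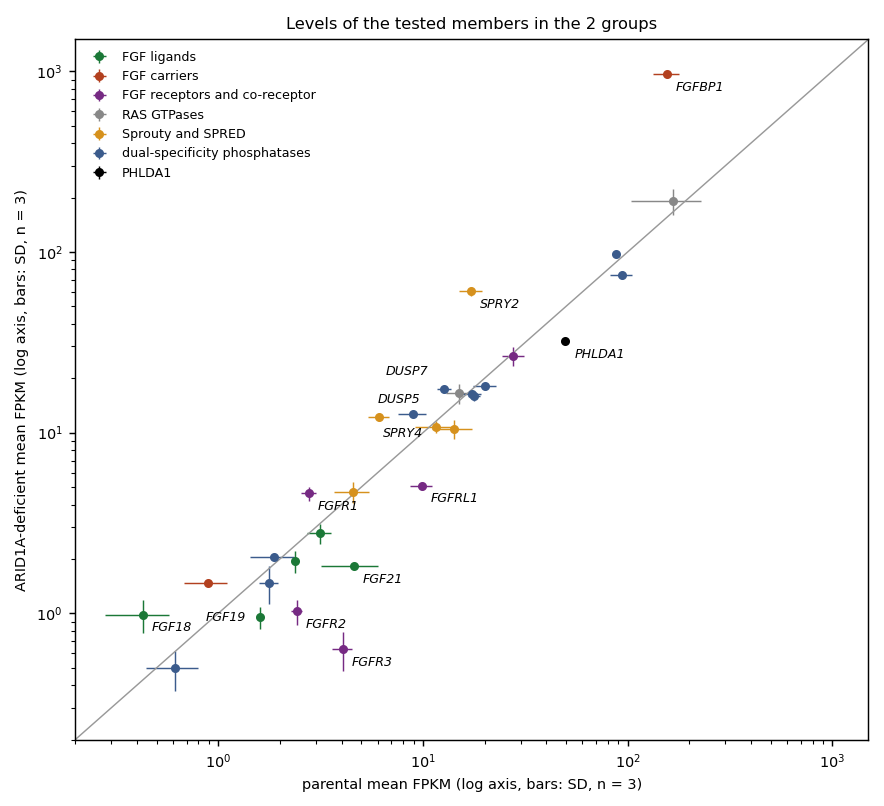
Mean FPKM in ARID1A-deficient (vertical) against parental libraries (horizontal) for the 30 tested members, log axes, bars SD with n = 3, colours by role and the line of equal levels in grey. FGFBP1 is the highest point at 959.8 against 155 FPKM, SPRY2 lies well above the line at 60.5 against 17.2 FPKM, and FGFR3 well below it at 0.631 against 4.06 FPKM.

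Among the receptors, FGFR1 rose, FGFR2, FGFR3 and FGFRL1 fell, and FGFR4, by far the most abundant, did not pass the test. FGFR3, a receptor tyrosine kinase for several paracrine FGFs, measured 0.466, 0.659 and 0.767 FPKM in ARID1A-deficient libraries, against 4.54, 3.61 and 4.02 FPKM in parental libraries. Every ARID1A-deficient value was below 1 FPKM and every parental value above 3 FPKM. It fell 6.43-fold, by ratio of means the largest change of a tested member (log2 fold change -1.63, SE 0.12, adjusted p = 0.000218), and with a pseudocount of 0.1 the log2 fold change was -2.52. FGFR2, whose epithelial isoform binds ligands from stroma, measured 1.17, 0.847 and 1.06 FPKM in ARID1A-deficient libraries, against 2.54, 2.44 and 2.25 FPKM in parental libraries. Its groups did not overlap, and it fell 2.36-fold (log2 fold change -0.76, SE 0.10, adjusted p = 0.00337). A value per gene does not separate the receptor isoforms, and FGFR3 has annotated pseudogene copies with which reads may be shared.

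FGFRL1, an FGF-binding receptor that lacks the kinase domain, measured 4.82, 5.01 and 5.38 FPKM in ARID1A-deficient libraries, against 11.2, 8.84 and 9.60 FPKM in parental libraries. All ARID1A-deficient values were well below the parental ones, a 1.95-fold decrease (log2 fold change -0.84, SE 0.11, adjusted p = 0.00306). FGFR1, a receptor often linked with mesenchymal cells, measured 4.32, 4.41 and 5.08 FPKM in ARID1A-deficient libraries, against 2.86, 2.52 and 2.94 FPKM in parental libraries. The FGFR1 groups did not overlap, and it rose 1.66-fold (log2 fold change 0.57, SE 0.10, adjusted p = 0.0116). Leaving out ARID1A-deficient library 3 (adjusted p = 0.0627) ended the FGFR1 call, as did equal library sums (adjusted p = 0.101).

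FGFR4, the receptor that FGF19 uses in liver, measured 23.1, 29.4 and 27.5 FPKM in ARID1A-deficient libraries, against 25.8, 31.5 and 25.6 FPKM in parental libraries. The groups overlapped throughout, with a log2 fold change of -0.05 (95% interval -0.35 to 0.25, adjusted p = 0.835), and the sign turned without ARID1A-deficient library 1 or parental library 2 (0.05 and 0.04). KLB, the beta-klotho co-receptor through which FGF19 and FGF21 bind their receptors, was at 0.0175 to 0.0559 FPKM in ARID1A-deficient libraries, against 0.0111 to 0.0712 FPKM in parental libraries, too low to be tested. The FPKM of FGFR1, FGFR2, FGFR3 and FGFR4 summed to between 29.02 and 35.3 in ARID1A-deficient libraries, against 34.8 to 40.1 in parental libraries. FGFR4 made up 79.5% to 83.3% of that sum in ARID1A-deficient libraries, against 72.1% to 78.6% in parental libraries. FGFR1 made up 12.5% to 14.9% in ARID1A-deficient libraries and 6.28% to 8.43% in parental libraries. FGFR3 made up 1.61% to 2.23% in ARID1A-deficient libraries and 9.02% to 12.7% in parental libraries. Thus FGFR1 was above FGFR3 by 6.63 to 9.28 times in ARID1A-deficient libraries, and below it, at 0.630 to 0.732 times, in parental libraries.

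The RAS GTPases, which carry the signal from the receptor to RAF, did not pass the test. HRAS measured 159.5, 222 and 194 FPKM in ARID1A-deficient libraries, against 120.2, 238 and 141 FPKM in parental libraries. Parental library 2 gave the highest value of all 6 (log2 fold change 0.25, 95% interval -0.39 to 0.89, adjusted p = 0.592), and without it HRAS passed as higher (log2 fold change 0.54, adjusted p = 0.0293). NRAS measured 18.8, 14.9 and 15.8 FPKM in ARID1A-deficient libraries, against 16.8, 12.6 and 15.7 FPKM in parental libraries, with overlapping groups (log2 fold change 0.13, 95% interval -0.18 to 0.44, adjusted p = 0.575).

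Of the Sprouty and SPRED genes, SPRY2 and SPRY4 rose and the other 3 tested members did not pass. SPRY2, an ERK-induced inhibitor of receptor tyrosine kinase signalling, measured 61.8, 56.9 and 62.7 FPKM in ARID1A-deficient libraries, against 19.2, 14.8 and 17.5 FPKM in parental libraries. The groups lay far apart, with little spread within either. SPRY2 averaged 60.5 ± 3.10 FPKM in ARID1A-deficient cells and 17.2 ± 2.22 FPKM in parental cells (SD, n = 3 each), a 3.52-fold increase (log2 fold change 1.76, SE 0.11, adjusted p = 0.000118). Without any single library its log2 fold change stayed between 1.67 and 1.84. SPRY4, a related inhibitor, measured 11.9, 11.8 and 13.004 FPKM in ARID1A-deficient libraries, against 6.70, 5.28 and 6.32 FPKM in parental libraries. All ARID1A-deficient values were higher, a 2.01-fold increase (log2 fold change 0.90, SE 0.11, adjusted p = 0.00192).

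SPRY1 measured 11.6, 10.0 and 10.8 FPKM in ARID1A-deficient libraries, against 14.1, 9.20 and 11.6 FPKM in parental libraries. Its groups overlapped (log2 fold change -0.08, 95% interval -0.43 to 0.28, adjusted p = 0.781). Within a library, SPRY2 stood at 5.33 to 5.79 times SPRY1 in ARID1A-deficient libraries and at 1.37 to 1.61 times in parental libraries. SPRED1, which recruits neurofibromin to the membrane to switch off RAS, measured 5.06, 3.96 and 5.03 FPKM in ARID1A-deficient libraries, against 5.57, 3.87 and 4.27 FPKM in parental libraries (log2 fold change 0.04, 95% interval -0.31 to 0.38, adjusted p = 0.908). SPRED2, of the same family, measured 11.7, 9.11 and 10.7 FPKM in ARID1A-deficient libraries, against 17.2, 10.9 and 14.6 FPKM in parental libraries. Parental library 2 lay among the ARID1A-deficient values (log2 fold change -0.39, 95% interval -0.80 to 0.01, adjusted p = 0.182), and without it SPRED2 passed as lower (log2 fold change -0.56, adjusted p = 0.00941). SPRED3 measured 0.151 to 0.527 FPKM in ARID1A-deficient libraries, against 0.372 to 0.561 FPKM in parental libraries, and SPRY3 was listed at 0 in all 6 libraries. Neither was tested.

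Of 10 tested dual-specificity phosphatases, DUSP5 and DUSP7 rose and 8 did not pass, a share of 20% that is near the 15.9% of all genes tested. DUSP5, a nuclear phosphatase specific for ERK, measured 12.7, 12.9 and 12.6 FPKM in ARID1A-deficient libraries, against 7.75, 10.5 and 8.69 FPKM in parental libraries. The groups did not overlap, and it rose 1.42-fold (log2 fold change 0.47, SE 0.11, adjusted p = 0.0335). DUSP7, a cytoplasmic ERK phosphatase, measured 16.9, 16.9 and 18.2 FPKM in ARID1A-deficient libraries, against 13.2, 13.2 and 11.5 FPKM in parental libraries. All ARID1A-deficient values were higher, by 1.37-fold in the means (log2 fold change 0.43, SE 0.09, adjusted p = 0.0189). The DUSP5 call ended without any single library but parental library 2 (highest adjusted p = 0.128). That of DUSP7 ended when any ARID1A-deficient library or parental library 3 was left out (highest adjusted p = 0.0972). Both ended with equal library sums (adjusted p = 0.0593 and 0.141). DUSP5 has annotated pseudogene copies, with which reads may be shared.

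DUSP6, the cytoplasmic ERK phosphatase often read as a gauge of ERK output, and DUSP4, its nuclear counterpart, had the highest mean levels among the 10 tested phosphatases of the 39 genes. DUSP6 measured 77.7, 70.5 and 74.8 FPKM in ARID1A-deficient libraries, against 105, 81.9 and 94.0 FPKM in parental libraries. The DUSP6 groups did not overlap, with parental library 2 nearest to the ARID1A-deficient values, and the gene did not pass (log2 fold change -0.32, 95% interval -0.61 to -0.03, adjusted p = 0.129). It passed as lower without parental library 2 (log2 fold change -0.41, adjusted p = 0.0166). DUSP4 measured 97.4, 96.3 and 100.1 FPKM in ARID1A-deficient libraries, against 90.2, 87.2 and 86.6 FPKM in parental libraries. Its groups did not overlap either, and the difference was small (log2 fold change 0.15, 95% interval -0.07 to 0.37, adjusted p = 0.328). Within a library, DUSP6 stood at 1.19 to 1.26 times SPRY2 in ARID1A-deficient libraries and at 5.37 to 5.53 times in parental libraries.

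The other phosphatases had overlapping groups. DUSP1, an inducible nuclear phosphatase for p38, JNK and ERK, averaged 16.3 ± 0.828 FPKM in ARID1A-deficient cells and 17.3 ± 1.88 FPKM in parental cells (SD, n = 3 each). DUSP3, a small atypical member, averaged 15.9 ± 0.870 FPKM in ARID1A-deficient cells and 17.8 ± 1.17 FPKM in parental cells. DUSP14, another atypical member, averaged 18.0 ± 0.815 FPKM in ARID1A-deficient cells and 20.2 ± 2.52 FPKM in parental cells. Their 95% intervals of the log2 fold change ran from -0.32 to 0.16, from -0.36 to 0.04 and from -0.40 to 0.10. At lower levels, DUSP2 averaged 2.05 ± 0.0729 FPKM in ARID1A-deficient cells and 1.88 ± 0.459 FPKM in parental cells. DUSP16, a phosphatase mainly of JNK, averaged 1.48 ± 0.352 FPKM in ARID1A-deficient cells and 1.77 ± 0.186 FPKM in parental cells. DUSP10, which acts on p38 and JNK, averaged 0.495 ± 0.122 FPKM in ARID1A-deficient cells and 0.617 ± 0.175 FPKM in parental cells. Adjusted p-values of the 6 ran from 0.271 for DUSP3 to 0.692 for DUSP2. DUSP8 was not tested and measured 0.379 to 0.662 FPKM in ARID1A-deficient libraries, against 0.345 to 0.470 FPKM in parental libraries.

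PHLDA1, a pleckstrin homology-like domain gene whose transcript depends on ERK activity in many cancer lines, measured 32.3, 31.8 and 31.7 FPKM in ARID1A-deficient libraries, against 51.4, 47.1 and 50.3 FPKM in parental libraries. The ARID1A-deficient values were nearly equal and all lay below the parental ones. PHLDA1 fell 1.55-fold (log2 fold change -0.62, SE 0.08, adjusted p = 0.00298). Its exons overlap opposite-strand genes that have no row here, with which reads may be mixed. These feedback and ERK-responsive genes thus did not share a direction. SPRY2 and SPRY4 were called higher and PHLDA1 lower in all 13 alternatives. DUSP5 and DUSP7 were called higher, but lost the call in 6 and 5 of the 13. DUSP4, DUSP6, SPRY1, SPRED1 and SPRED2 did not pass. PHLDA1 stood at 0.506 to 0.559 times SPRY2 in ARID1A-deficient libraries and at 2.68 to 3.18 times in parental libraries.

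The other genes of the pathway were taken from lists that, like the members, were chosen with earlier results of these data known. In the list of adaptors and kinases of the RAS to ERK cascade, 3 of 24 tested genes passed limma, all lower, a share of 12.5% that is near the 15.9% of all genes tested. They were RPS6KA1, an ERK-activated kinase, MAPK3, which encodes ERK1, and KSR1, a scaffold for RAF and MEK. MAPK3 measured 25.6, 31.0 and 28.3 FPKM in ARID1A-deficient libraries, against 43.1, 59.0 and 43.3 FPKM in parental libraries (log2 fold change -0.74, SE 0.15, adjusted p = 0.0161). RPS6KA1 measured 16.1, 18.8 and 17.8 FPKM in ARID1A-deficient libraries, against 25.7, 28.2 and 25.2 FPKM in parental libraries (log2 fold change -0.56, SE 0.09, adjusted p = 0.00773). Leaving out ARID1A-deficient library 1 or 3 ended the MAPK3 call (highest adjusted p = 0.0751). KSR1 measured 0.323, 0.105 and 0.287 FPKM in ARID1A-deficient libraries, against 2.23, 0.819 and 2.02 FPKM in parental libraries. The groups of all 3 genes stood apart, KSR1 reached the mean needed for testing only through the parental libraries, and the KSR1 call (log2 fold change -1.08, adjusted p = 0.0192) ended when any ARID1A-deficient library or parental library 3 was left out (highest adjusted p = 0.0775). The cascade's count of lower genes ranged from 1 without ARID1A-deficient library 1 or 3 to 9 without parental library 2. Of all genes, 9.94% and 7.52% were called without ARID1A-deficient library 1 and 3, and 31.8% without parental library 2. The cascade's count was 2 without ARID1A-deficient library 2 or parental library 3, where 8.44% and 7.94% of all genes were called.

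Of 11 tested ERK-dependent transcripts outside the 39, 2 rose and 2 fell, a share of 36.4% beside 15.9% of all genes tested. LIF, an interleukin 6 family cytokine, measured 49.7, 50.5 and 54.5 FPKM in ARID1A-deficient libraries, against 17.6, 16.5 and 16.2 FPKM in parental libraries (log2 fold change 1.57, SE 0.08, adjusted p = 5.47e-05). MAFF, a small MAF transcription factor, measured 31.7, 33.4 and 36.6 FPKM in ARID1A-deficient libraries, against 15.6, 16.0 and 15.7 FPKM in parental libraries (log2 fold change 1.06, SE 0.08, adjusted p = 0.000338). FOS, an AP-1 subunit, measured 16.5, 16.7 and 18.9 FPKM in ARID1A-deficient libraries, against 83.2, 70.4 and 79.1 FPKM in parental libraries (log2 fold change -2.09, SE 0.10, adjusted p = 3.87e-05). For these 3 genes the groups lay far apart. MYC, a growth-promoting transcription factor, measured 81.3, 84.7 and 87.0 FPKM in ARID1A-deficient libraries, against 107, 110.3 and 109.6 FPKM in parental libraries (log2 fold change -0.37, SE 0.09, adjusted p = 0.0417). The MYC call ended without any single library but parental library 2 and with equal library sums (highest adjusted p = 0.176). The count of lower transcripts was 1 in each of those cases and 3 without parental library 2. Of all genes, 7.52% to 12.3% were called in those cases and 31.8% without parental library 2.

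Among heparan sulfate proteoglycans and their enzymes, which hold FGFs near the cell surface, 2 of 18 tested genes rose and 3 fell. That is a share of 27.8%, beside 15.9% of all genes tested. GPC4, a glypican, measured 15.2, 13.6 and 13.9 FPKM in ARID1A-deficient libraries, against 6.77, 5.48 and 5.86 FPKM in parental libraries (log2 fold change 1.12, SE 0.10, adjusted p = 0.000604). SULF2, an extracellular sulfatase of heparan sulfate, averaged 6.92 ± 0.685 FPKM in ARID1A-deficient cells and 3.59 ± 0.315 FPKM in parental cells (SD, n = 3 each; adjusted p = 0.00400, and 0.0542 with equal library sums). SDC1, the syndecan of epithelia, measured 70.4, 79.4 and 79.2 FPKM in ARID1A-deficient libraries, against 123.3, 142 and 128 FPKM in parental libraries (log2 fold change -0.77, SE 0.11, adjusted p = 0.00487). In none of these 3 genes did the groups overlap. SDC3, a syndecan, averaged 4.28 ± 0.191 FPKM in ARID1A-deficient cells and 6.63 ± 0.335 FPKM in parental cells (adjusted p = 0.00838), a call that ended without parental library 3 (adjusted p = 0.0562) and with equal library sums (adjusted p = 0.0822). The counts were 1 higher and 1 lower with equal library sums, where 11.5% of all genes were called. Without single libraries 2 rose in each case and 1 to 4 fell, with 1 lower without parental library 3 and 2 without any single ARID1A-deficient library. In the latter cases 7.52% to 9.94% of all genes were called. The count of 4 lower came without parental library 2, where 31.8% were.

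**Figure D5:**
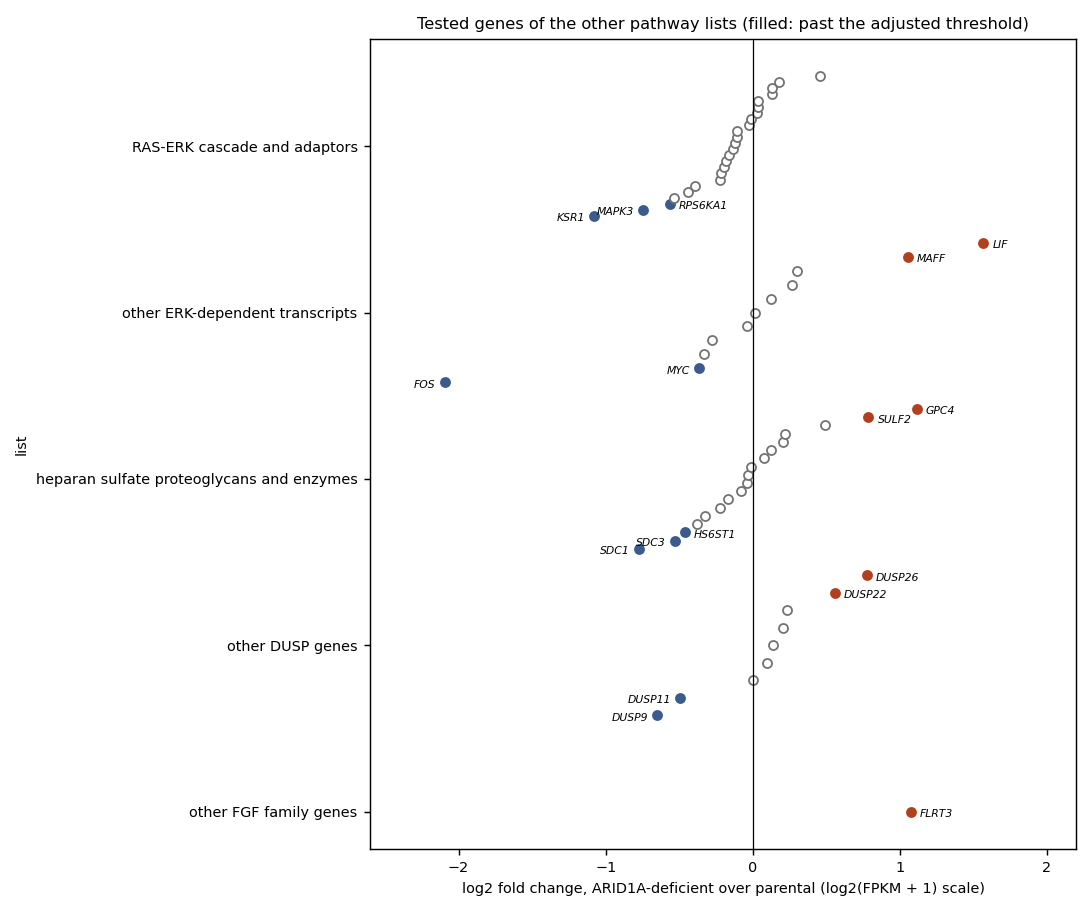
Log2 fold change of ARID1A-deficient over parental on the log2(FPKM + 1) scale for each tested gene of 5 other pathway lists, spread vertically within a list by rank (filled and named: past the adjusted threshold; open: not). FOS at -2.09 and LIF at 1.57 are the ends of the ERK-dependent list, while most cascade genes lie near 0.

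Of 16 other FGF family genes, FLRT3 alone reached the mean needed for testing. FLRT3, a membrane protein that binds FGF receptors, measured 3.16, 2.67 and 2.79 FPKM in ARID1A-deficient libraries, against 0.740, 1.01 and 0.760 FPKM in parental libraries (log2 fold change 1.08, SE 0.10, adjusted p = 0.000890). Its groups stood clearly apart. Of 9 other tested DUSP genes, 2 rose and 2 fell, a share of 44.4% beside 15.9% of all genes tested. DUSP26 averaged 1.05 ± 0.191 FPKM in ARID1A-deficient cells and 0.2005 ± 0.135 FPKM in parental cells and so reached the mean needed only through ARID1A-deficient libraries (SD, n = 3 each; adjusted p = 0.00655). DUSP22 averaged 7.82 ± 0.269 FPKM in ARID1A-deficient cells and 5.00 ± 0.554 FPKM in parental cells (adjusted p = 0.0111). DUSP9, an ERK phosphatase of the DUSP6 group, averaged 3.597 ± 0.409 FPKM in ARID1A-deficient cells and 6.22 ± 0.871 FPKM in parental cells (adjusted p = 0.0151). DUSP11, which acts on RNA, averaged 16.2 ± 0.981 FPKM in ARID1A-deficient cells and 23.2 ± 0.567 FPKM in parental cells (adjusted p = 0.00704). DUSP9 lost its call when ARID1A-deficient library 1 or 3 was left out (highest adjusted p = 0.0642). DUSP22 lost it without ARID1A-deficient library 3 or parental library 3 (highest adjusted p = 0.0630), and both DUSP22 and DUSP11 lost it with equal library sums (adjusted p = 0.0612 and 0.0912). The list's counts were then 1 higher without either of the libraries that ended the DUSP22 call, 1 lower without either that ended the DUSP9 call, and 1 higher and 1 lower with equal sums. Without parental library 2 the number higher was 4, while 31.8% of all genes were called. The share of all genes was 11.5% with equal sums and 7.52% to 9.94% without the libraries that ended these calls.

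The 20 tested genes on each side of a called member on its chromosome were read beside it. Over all genes tested, 7.82% were called higher and 8.11% lower. For FGFBP1 the neighbours' median log2 fold change was -0.27, with 0 of 40 called higher and 10 lower, opposite in sign to the gene's own 2.63. Near FGFR3 and FGFRL1 the medians were -0.23 over 40 and -0.22 over 35 neighbours, the same sign as these receptors and smaller than their own -1.63 and -0.84. Of these neighbours 0 were called higher for either receptor, and 6 and 4 were called lower. Both receptors start near each other on chromosome 4, so their neighbour sets can share genes and hold the other receptor. FGF2 and SPRY1, uncalled members elsewhere on chromosome 4, had neighbour medians of -0.25 and -0.24. For each of them 0 of 40 neighbours were called higher and 7 lower. For SPRY2 and SPRY4 the medians were 0.20 and 0.21, beside their own 1.76 and 0.90. Of 40 neighbours each, 8 and 10 were called higher and 0 and 2 lower. FGF18, FGF19 and FGF21 had neighbour medians of -0.07, -0.06 and 0.08, with 1, 2 and 3 of 40 neighbours higher and 4, 6 and 3 lower. The neighbours of FGFR1, FGFR2, DUSP5, DUSP7 and PHLDA1 had medians between -0.04 and 0.03. Of 40 each, in that order, 7, 2, 1, 4 and 6 were called higher and 2, 0, 3, 0 and 2 lower. The part of such shifts in the members' changes was not tested.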

How the data were processed

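The authors deposited FPKM values by gene symbol, a file for each library. The submitters' processing notes list build GRCh37 (hg19) and the tools Cuffdiff 2.2.1.5, Cuffnorm 2.2.1.2 and TopHat2 2.1.1. Annotation and scaling are not stated in the sources used here, and FPKM hides a change in total RNA per cell. Per the labels' protocols the library kit was a TruSeq version 2 kit, which does not mark strand. Groups came from the sample titles. Of 23273 rows per file, 28 with symbols turned into dates were left out.

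FPKM needs a log-scale model: limma (version 3.58.1, R 4.3.3) was fitted, with trend and robust moderation, to log2(FPKM + 1) of the 6 libraries with a group term alone. The 12826 genes whose mean reached 0.5 FPKM were tested. P-values are two-sided, Benjamini-Hochberg adjusted over all genes tested, with a threshold of 0.05. Folds are ratios of mean FPKM, and the log2 scale understates the change of low genes. The labels do not say that libraries came from separate cultures, so p-values measure the spread between these libraries, which may be technical. Nor is depth known, and precision rests on that spread.

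All 39 members are named, with library values for called members. From each other pathway list, up to 4 called genes with the smallest adjusted p are named. Members and lists were chosen with earlier results of these data known. Alternatives were another pseudocount, other filters, quantile normalization, equal library sums, a replicate block, limma without trend and each library left out. Promoter windows are RefSeq's (GRCh38.p14). Neighbours follow RefSeq gene order (96.7% of tested genes placed), and overlapping exons GENCODE 29.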

Additional observations from a re-analysis of the deposited data

How the results depend on the processing

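The number of all genes called was 2043, with 964 to 4079 when single libraries were left out, the highest without parental library 2. Members called higher were 7, with 3 to 9 without single libraries and 4 with equal library sums. Members called lower were 6, with 4 to 8 without single libraries and 3 where genes needed a mean of 3 FPKM, which leaves FGFR2, FGFR3 and FGF19 untested. FGFBP1, SPRY2 and ARID1A kept their direction and call in all 13 alternatives. Fold changes of 4 members that did not pass turned in sign without single libraries, ranging from -0.12 to 0.0458 for FGFR4, -0.22 to 0.0596 for SPRY1, -0.0565 to 0.16 for SPRED1 and -0.0152 to 0.21 for DUSP2. The cause was not tested. Scaling to equal sums moved the median log2 fold change of all genes to -0.04, beside -0.01.

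The replicate numbers are shared between groups, and deviations from the group means correlated at 0.219, 0.217 and -0.01 for numbers 1, 2 and 3. Numbers 1 and 2 thus correlated best with their own number, and number 3 did not. FPKM sums rose in the order 1, 3, 2 in both groups. With this mixed picture the numbers were not taken to pair the libraries, and shared processing was not tested. ARID1A-deficient library 3 correlated better with parental library 2 (0.057) than with its own number. With the replicate block 4049 genes were called, and 8 members were higher and 8 lower, adding FGFBP3 (higher, adjusted p = 0.0158), DUSP6 (lower, 0.0222) and SPRED2 (lower, 0.00474). Depth is unknown, and members listed at or near 0 FPKM could not be compared.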
